A study of Mus musculus with 6 samples.

Results

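The transcripts of 10 genes that write, keep or remove repressive marks on chromatin, or that place histones on new DNA, were followed on 6 mouse arrays. They were the polycomb genes Ezh2, Eed and Suz12, the DNA methylation genes Dnmt1, Uhrf1, Hells, Dnmt3a and Dnmt3b, the DNA demethylation gene Tet2 and the chromatin assembly gene Chaf1a. Each was represented by a single probe set annotated to that gene alone, so that 10 of the 22180 genes on the arrays were described. The group K8wt held luminal mammary epithelial cells of 3 wild-type Rosa26-Stop-YFP females (mice 1, 2 and 4), sorted for YFP fluorescence 10 to 14 days after the Cre adenovirus Ad-K8-Cre had been put into the ducts. The group Brca1Tumor held 3 mammary tumors (23, 24 and 25) of Trp53L/L;Brca1L/L females collected several months after the same virus, which the labels call null for Trp53 and Brca1. Both groups had therefore received Cre by the K8 vector, and only the tumor mice carried the L/L alleles. The labels mention sorting only for the wild type, so the tumors are taken here as unsorted tissue. They give no ages and do not state that each tumor came from a separate mouse; the p-values measure the spread between these samples, whatever its source.

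Polycomb repressive complex 2 (PRC2) methylates a lysine of the histone H3 tail and thereby keeps developmental genes silent. EZH2 is its catalytic subunit, EED binds the finished mark and stimulates the enzyme, and SUZ12 holds the complex together. DNA methylation is copied after replication by DNMT1, which UHRF1 brings to half-methylated DNA and which the remodeller HELLS helps to act in compact chromatin. DNMT3A and DNMT3B methylate DNA that carried no mark, whereas TET2 oxidises methylated cytosine as a step of its removal. CHAF1A is the large subunit of the chromatin assembly factor that deposits histones behind the replication fork. In many cell types the transcripts of Ezh2, Uhrf1, Hells and Chaf1a are more abundant in cycling cells, and E2F factors are known regulators of several of them.

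In the tumors Dnmt3b and Chaf1a rose, by 1.27 ± 0.18 and 1.52 ± 0.28 log2 units (SE, n = 3 and 3), which is 2.4-fold and 2.88-fold. Hells, Uhrf1 and Ezh2 had higher means by 2.68 ± 0.64, 1.88 ± 0.61 and 1.09 ± 0.24 without passing the test. Suz12, Eed, Dnmt1, Dnmt3a and Tet2 differed by 0.34 or less in either direction. The test was limma's moderated test with Benjamini-Hochberg adjustment over 22180 genes and a threshold of 0.05. It called 2 of the 10 genes, both higher, where it called 3.91% of all genes, 2.52% higher and 1.39% lower. At an unadjusted p under 0.05, 5 of the 10 passed, all higher, against 26.4% of all genes, 13.4% higher and 13% lower. The 3 tumors lay above all 3 wild-type samples for 6 of the 10 genes, against 14% of all genes, and below them for none, against 22.4%. The median difference was 0.71 over the 10 genes, -0.12 over all genes and 0.32 over the 7726 genes with a mean of at least 5, to which 8 of the 10 belong. When only those 7726 genes were tested, 915 were called, 649 of them higher, and 1 of the 8 was among them. All 10 were chosen with earlier results of these data known.

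**Figure D1:**
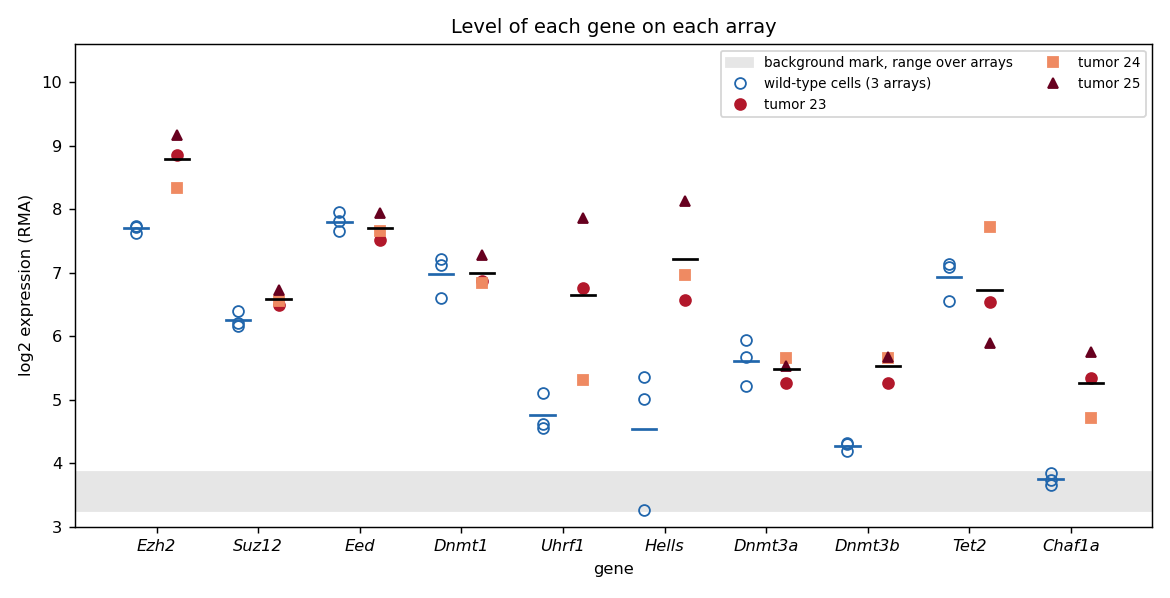
Log2 expression (y axis, RMA values) of the 10 genes (x axis) on each array, with open circles for the 3 wild-type samples, filled symbols for tumors 23, 24 and 25, lines for group means and a grey band for the background mark on the 6 arrays. The tumor points lie wholly above the wild-type points for Ezh2, Suz12, Uhrf1, Hells, Dnmt3b and Chaf1a, and the groups overlap for Eed, Dnmt1, Dnmt3a and Tet2.

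A level is given throughout as a log2 value, on which 1 unit is a 2-fold step. The mark for background, set by 1105 olfactory receptor genes at their 95th percentile, was 3.70 to 3.86 on the wild-type arrays and 3.24 to 3.45 on the tumor arrays; values under it are not told from background. In whole tumors, fewer cells of a type and less RNA per cell cannot be told apart. All 11 measured luminal epithelial markers lay above the mark on every wild-type array, and their summed linear level was 7098 to 13570 there and 1978 to 4501 in the tumors. All 10 macrophage markers were higher in every tumor than in any wild-type sample, with summed levels of 1091 to 2311 against 163 to 307.2, and Adgre1, C1qc, Fcgr1 and Mrc1 lay under the mark on all 3 wild-type arrays. Summed skeletal muscle markers measured 152.9 to 157 in wild-type cells, 187.4 in tumor 24, 1096 in tumor 25 and 8385 in tumor 23, with Myh4, Myh1, Ckm, Atp2a1, Mylpf and Actn3 under the mark on all 3 wild-type arrays. The summed level of 24 proliferation genes ran from 671.2 to 1664 in wild-type cells and was 3910, 1764 and 5161 in tumors 23, 24 and 25. The wild-type samples also held signal of other cell types. Summed fibroblast markers measured 1543 to 2715 there and 504 to 1416 in tumors, though 8 of the 10 had higher means in tumors. Summed adipocyte markers measured 445 to 1895 in wild-type cells and 128.6 to 343.5 in tumors. Basal epithelial markers measured 801.1 to 1616 and 572.1 to 5340. The part of other cell types and of cycling cells in the differences below was not tested. Brca1 measured 2.93 ± 0.11 (SD, n = 3) in wild-type cells and 3.88 ± 0.19 in the tumors, which checks nothing about the deletion, since the sources used here give neither the deleted exons nor the positions of the probes.

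The promoters of the genes that differed most are shown because these genes are read together below. Each is the part of the 250 bases before the annotated start that lies outside the annotated gene (RefSeq, GRCm38.p6), on the gene's strand from 5′ to 3′. For Hells, whose window lies inside the annotated gene, and Ezh2, whose window lies mostly inside it, 30 bases around a motif are given. Capitals mark the CCAAT box bound by NF-Y or an E2F word. The regions are chr2:153649199-153649410 (plus strand) for Dnmt3b, chr17:56040166-56040415 (plus) for Chaf1a, chr17:56303087-56303336 (plus) for Uhrf1, chr6:47595076-47595105 (minus) for Ezh2 and chr19:38930917-38930946 (plus) for Hells.
Dnmt3b: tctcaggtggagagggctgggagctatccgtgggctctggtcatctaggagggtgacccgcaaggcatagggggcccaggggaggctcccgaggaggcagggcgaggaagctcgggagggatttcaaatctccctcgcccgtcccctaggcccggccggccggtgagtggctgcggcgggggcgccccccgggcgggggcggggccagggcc
Chaf1a: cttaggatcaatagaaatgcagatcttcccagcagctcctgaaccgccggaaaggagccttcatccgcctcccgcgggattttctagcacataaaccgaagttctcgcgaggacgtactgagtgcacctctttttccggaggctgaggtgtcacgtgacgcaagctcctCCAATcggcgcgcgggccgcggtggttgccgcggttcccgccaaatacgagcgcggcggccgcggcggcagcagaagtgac
Uhrf1: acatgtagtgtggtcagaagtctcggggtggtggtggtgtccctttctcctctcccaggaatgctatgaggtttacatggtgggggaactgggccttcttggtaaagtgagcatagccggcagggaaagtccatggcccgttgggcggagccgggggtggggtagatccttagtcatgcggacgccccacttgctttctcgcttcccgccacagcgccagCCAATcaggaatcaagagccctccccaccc
Ezh2: tctcgcatcctCCAATcggagaggcgcttg
Hells: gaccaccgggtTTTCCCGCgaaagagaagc

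The words searched, on both strands, were CCAAT and, for E2F, TTTCCCGC, TTTCGCGC, TTTGGCGC and TTTGCCGC, none of which contains CCAAT. RefSeq gave 15 start windows for the 10 genes, up to 3 each for Dnmt1 and Dnmt3a. An E2F word stood in 4 of these 15 windows, of Suz12, Dnmt1, Uhrf1 and Hells, and in 1.86% of 32851 windows of all genes. The word of Hells began 62 bases before the start; that of Uhrf1 lay in the window of its other start, 185 bases before it. CCAAT stood in 7 of the 15 windows, of Ezh2, Suz12, Dnmt1, Uhrf1 and Chaf1a, and in 33.8% of all windows. The Ezh2 window held 3, which began 90, 64 and 11 bases before the start. Of the called genes, Chaf1a held CCAAT and none of the E2F words searched, and Dnmt3b held neither. Other forms of an E2F site were not searched, so a window without these words is not shown to lack one. Over the 15 windows the number of CG dinucleotides ran from 2 (the first window of Dnmt1) to 51 (Tet2), where the median of all windows was 6.

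Of the PRC2 core, the catalytic subunit had the largest difference. Ezh2 measured 7.72, 7.74 and 7.63 in wild-type mice 1, 2 and 4 and 8.86, 8.33 and 9.18 in tumors 23, 24 and 25. The wild-type samples lay within 0.11 log2 units of each other, and the lowest tumor was 0.59 above the highest of them. Ezh2 did not pass the test (adjusted p of 0.064 in limma; 95% interval of the difference, 0.50 to 1.67), but it passed after cyclic loess (0.045), with array weights (0.038) and without tumor 24 (0.029). It did not pass after repeated quantile normalization (0.052), with a trended robust prior (0.090) or without any other single array (0.134 to 0.157). After housekeeping centring the difference was 0.47 (adjusted p of 0.19). Tumor 24 was the lowest of the tumors for this gene.

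Suz12, the scaffold, measured 6.15, 6.21 and 6.40 in wild-type cells and 6.49, 6.56 and 6.73 in tumors. The groups did not overlap, though only 0.08 separated them, and the difference of 0.34 ± 0.17 (SE) had an adjusted p of 0.25 in limma. Its sign turned after centring on housekeeping genes (-0.29). Eed, the reader of the mark, measured 7.81, 7.65 and 7.95 in wild-type cells and 7.51, 7.66 and 7.94 in tumors. The groups overlapped, and the interval of the difference reached from -0.56 to 0.35.

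Of the genes that maintain DNA methylation, the partners Uhrf1 and Hells measured higher in tumors and the enzyme Dnmt1 did not. Dnmt1 was at 6.61, 7.12 and 7.22 in wild-type cells and at 6.88, 6.84 and 7.27 in tumors. Its groups overlapped, the interval of the difference was -0.55 to 0.58, and its sign changed under all 3 other scalings (-0.28 for repeated quantile normalization, -0.25 for cyclic loess and -0.60 for housekeeping centring).

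Uhrf1, which recognises half-methylated DNA, was at 4.56, 4.61 and 5.11 in wild-type cells and at 6.75, 5.32 and 7.86 in tumors. Tumor 24 lay 0.20 above the highest wild-type sample and tumor 25 a further 2.55 above tumor 24. This spread was the widest among the 10 genes in tumors, with an SD of 1.28 against 0.31 in wild-type cells. The adjusted p was 0.12 in limma (interval 0.42 to 3.35), and without tumor 24 the difference was 2.55 with an adjusted p of 0.028. Without tumor 25 it was 1.27 (0.215). The other sets that left out 1 array gave differences between these values, with an adjusted p of up to 0.248 in limma.

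Hells, a remodeller of the SNF2 family, was at 5.35, 3.26 and 5.01 in wild-type cells and at 6.57, 6.96 and 8.13 in tumors. It had the largest difference of the 10 genes, and the lowest tumor lay 1.21 above the highest wild-type sample. Wild-type mouse 2, under the background mark, widened the wild-type range to 2.09. The adjusted p was 0.073 in limma (interval 1.14 to 4.21) and 0.12 without that mouse, where the difference was 2.04. Hells passed when dim genes were left out (0.018 with a mean of at least 5, 0.028 with a mean not under that of the median gene), after centring on housekeeping genes (0.034) and with a trended robust prior (0.047). It did not pass after repeated quantile normalization (0.095), after cyclic loess (0.0825) or with array weights (0.067). It passed in 0 of 6 sets that each left out 1 array (0.091 to 0.159).

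Of the de novo methyltransferases, Dnmt3b passed the test and Dnmt3a did not. Dnmt3b was at 4.30, 4.32 and 4.19 in wild-type cells and at 5.26, 5.66 and 5.68 in tumors. Both groups were narrow, with SDs of 0.07 and 0.23, and the lowest tumor lay 0.95 above the highest wild-type sample. Its adjusted p was 0.025 in limma (interval 0.82 to 1.71), and its unadjusted p ranked 276 of 22180 genes. The 3 tumors were alike for Dnmt3b, at 1.00, 1.39 and 1.41 above the wild-type mean.

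The call of Dnmt3b held after quantile normalization (0.046) and cyclic loess (0.037) but not under every setting. After centring on housekeeping genes the difference was 0.65 with an adjusted p of 0.12. It passed in 1 of 6 sets that each left out 1 array, the set without tumor 24 (0.039). Without wild-type mice 1, 2 and 4 the adjusted p was 0.084, 0.070 and 0.094, and without tumors 23 and 25 it was 0.052 and 0.066, while the difference stayed between 1.19 and 1.40.

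Dnmt3a was at 5.68, 5.21 and 5.94 in wild-type cells and at 5.26, 5.65 and 5.53 in tumors. The tumors lay within the wild-type range. The difference was -0.13 ± 0.24 (SE), with an interval of -0.70 to 0.45.

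Tet2, the dioxygenase that oxidises methylated cytosine, was at 7.14, 7.09 and 6.55 in wild-type cells and at 6.54, 7.72 and 5.90 in tumors. Tumor 24 was above every wild-type sample, and tumors 23 and 25 were below every one. Relative to the wild-type mean, tumor 25 was at -1.03 and tumor 24 at 0.79, so that the mean difference of -0.21 ± 0.47 (SE, adjusted p of 0.78 in limma) described no single tumor. Without tumor 25 it was 0.20, and without tumor 24 it was -0.71.

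Chaf1a was at 3.85, 3.73 and 3.66 in wild-type cells and at 5.34, 4.71 and 5.76 in tumors. All 3 tumors were above the background mark, but wild-type mice 2 and 4 were under it, so the 2.88-fold size is a difference of RMA values only. The adjusted p was 0.042 in limma (interval 0.85 to 2.20), and the unadjusted p ranked 661. Under the other 3 scalings the gene still passed, at 0.038, 0.046 and 0.043, though housekeeping centring, the last of them, lowered the difference to 0.90. It passed without tumor 24 (0.021) and lost its call in each of the other 5 sets, with adjusted p of 0.113, 0.112 and 0.125 without wild-type mice 1, 2 and 4 and of 0.107 and 0.080 without tumors 23 and 25.

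**Figure D2:**
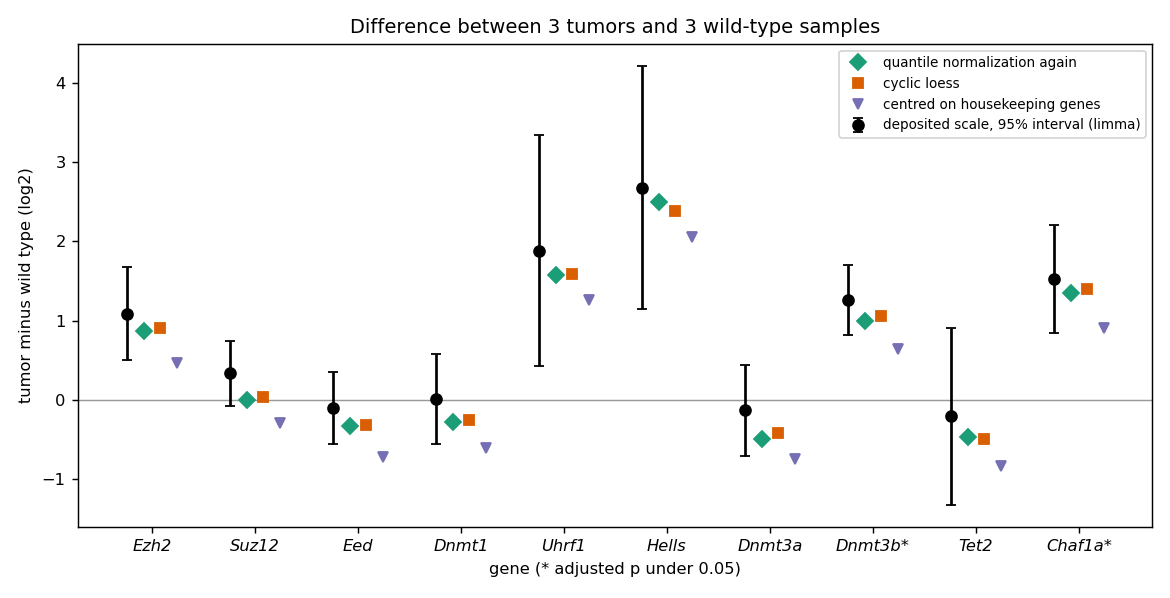
Difference between the mean of 3 tumors and of 3 wild-type samples (y axis, log2) for the 10 genes (x axis), with the 95% limma interval on the deposited scale and the value after 3 other scalings. Hells, Uhrf1, Chaf1a, Dnmt3b and Ezh2 stay above 0 under each scaling, whereas Suz12 and Dnmt1 change sign under at least 1.

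Genes of 1 complex or step were also compared with each other by the change of their log ratio on each array, which no constant shift of an array can alter. Ezh2 changed more than Eed by 1.19 log2 units: against the wild-type mean, the ratio was 1.45, 0.77 and 1.34 in tumors 23, 24 and 25 and 0.02, 0.19 and -0.21 in wild-type mice 1, 2 and 4. Ezh2 changed more than Suz12 by 0.75, and Suz12 more than Eed by 0.44. For all 3 pairs the tumors lay above the wild-type samples.

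Dnmt3b changed more than Dnmt3a by 1.39, with ratios of 1.35, 1.34 and 1.49 in the tumors and -0.04, 0.45 and -0.41 in wild-type cells. The tumor SD of this ratio was 0.08, the smallest of the 6 pairs. Uhrf1 changed more than Dnmt1 by 1.87 (2.10, 0.69 and 2.81 in tumors) and Hells more than Dnmt1 by 2.66 (2.13, 2.56 and 3.29). The pairs were picked by hand and not planned in advance. Pairs of the PRC2 core share genes, as do those with Dnmt1, so the 6 pairs are not independent. How often other gene pairs do not overlap was not computed. In each of the 6 pairs the groups did not overlap, and the two-sided exact permutation p was 0.1, also adjusted over the 6 pairs. That is the smallest p that 3 against 3 samples can give, so none of these differences could pass 0.05. Each kept its direction after quantile normalization, after cyclic loess and without any single array; housekeeping centring is a constant shift and cannot move them.

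The tumors differed in how far the genes had moved. Tumor 25 had the highest tumor value for 8 of the 10 genes, all but Dnmt3a and Tet2. For Ezh2, Uhrf1, Chaf1a and Dnmt1 the order was tumor 25, then 23, then 24. The proliferation list had the same order, with medians of 2.67, 1.82 and 0.76 above the wild-type mean. Chaf1a was 2.01, 1.60 and 0.97 above its wild-type mean in that order, and Ezh2 1.48, 1.16 and 0.63. Dnmt3b, Hells, Suz12, Eed and Dnmt3a had tumor 23 lowest, and Tet2 had tumor 25 lowest. With 3 tumors no relation was tested.

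**Figure D3:**
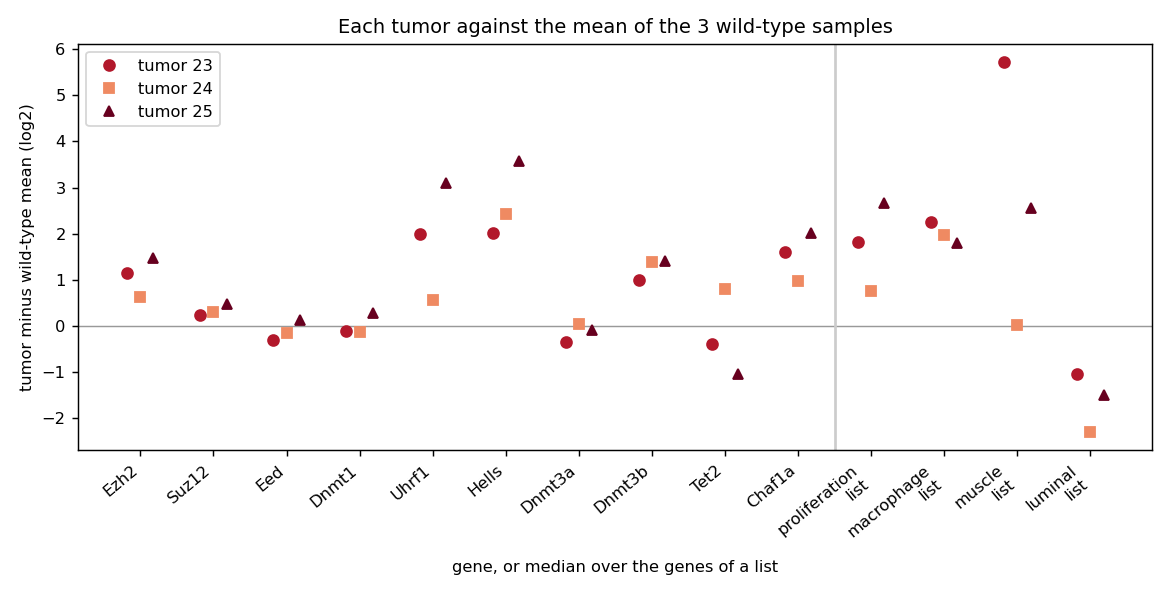
Each tumor's value less the mean of the 3 wild-type samples (y axis, log2) for the 10 genes and, right of the grey line, the median of 4 gene lists. Uhrf1 spreads from 0.56 in tumor 24 to 3.10 in tumor 25, Dnmt3b stays between 1.00 and 1.41, and the muscle list is high in tumors 23 and 25 only.

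Against tumor 24 alone, which had the least skeletal muscle signal, no member passed and limma called 0 of all genes, with 3588 at an unadjusted p under 0.05. Dnmt3b was 1.39 higher there (adjusted p of 0.11) and Hells 2.42 (0.29), close to their values over all tumors. Ezh2 (0.63), Uhrf1 (0.56) and Chaf1a (0.97) were nearer to the wild-type mean. This comparison was added after the data were seen and takes the lone tumor to vary as the wild-type samples do.

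The other genes of these pathways are given list by list, to be read beside the 3.91% of all genes called. Housekeeping centring, which lowered the median of all genes to -0.74, added lower calls to several lists, as given with each. Those counts are to be read beside the calls of that setting, 548 of 22180 genes higher and 6975 lower. Of 9 further PRC2 subunits and cofactors, none passed in limma (1 had an unadjusted p under 0.05), with a list median of 0.34 that became -0.28 after housekeeping centring. Epop, a PRC2 cofactor, was lowest at -0.94 ± 0.24 (SE, adjusted p of 0.084 in limma), and it passed as lower after repeated quantile normalization (0.048) and housekeeping centring (0.014). The histone-binding subunit Rbbp7 differed by 0.70 ± 0.39. Ezh1, the paralog of Ezh2, named after its values were seen, was at 8.09, 8.03 and 8.27 in wild-type cells and at 8.19, 8.87 and 8.34 in tumors. Its groups overlapped, the difference was 0.34 ± 0.23, and tumor 24 was its highest tumor where it was the lowest for Ezh2.

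Of 17 measured subunits of PRC1, the polycomb complex that ubiquitinates histone H2A, Pcgf1 rose and none fell. Pcgf1, a RING finger partner of a variant complex, went from 4.56 ± 0.25 to 6.35 ± 0.32 (SD, n = 3). It rose by 1.79 ± 0.23 (SE; adjusted p of 0.019 in limma). The list median of 0.22 turned negative under all 3 other scalings (-0.14, -0.06 and -0.40). After housekeeping centring 1 of the 17 was called higher and 5 lower, and the difference of Pcgf1 was 1.17. Among 12 enzymes that oppose polycomb, Bap1 rose and Kdm6b fell. Bap1, which removes ubiquitin from histone H2A, measured 5.58, 5.82 and 6.14 in wild-type cells and 7.75, 7.26 and 8.63 in tumors. Its difference was 2.04 ± 0.37 with an adjusted p of 0.040. Kdm6b, which demethylates the lysine that EZH2 methylates, measured 8.50, 8.92 and 8.44 in wild-type cells and 6.52, 7.37 and 7.25 in tumors. It fell by 1.57 with an adjusted p of 0.039, though averaging it with its other, dimmer probe set gave -0.88 and 0.068. The other 10 did not pass, and the list median of 0.05 turned negative under the other scalings (-0.24, -0.24 and -0.57), with 1 higher and 2 lower calls after housekeeping centring.

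Of 18 measured partners of DNA methylation and demethylation, Mbd4 alone passed. This DNA glycosylase at methylated sites rose by 1.21 ± 0.23 (SE) with an adjusted p of 0.044, starting below background in each wild-type sample, and lost its call after housekeeping centring (0.59, adjusted p of 0.14). The list median was 0.30, and -0.32 after that centring, which gave 1 higher and 2 lower calls. Among 19 measured histone chaperones and their partners, 17 had higher means, against 41.7% of all genes, and the list median was 0.54, or -0.08 after housekeeping centring. The 13 of them with a mean of at least 5 had a median of 0.43, beside 0.32 over all 7726 such genes. The share of higher means among those 7726 genes was not computed. Mms22l, which acts with TONSL at replication forks, was the only one of the 19 to pass. It measured 3.83, 3.76 and 4.05 in wild-type cells and 5.37, 5.29 and 5.38 in tumors, a difference of 1.47 ± 0.16 with an adjusted p of 0.015 that became 0.85 and 0.0504 after housekeeping centring, when no gene of the list was called. Chaf1b, the partner of CHAF1A, named after its values were seen, was at 5.004, 4.84 and 4.68 in wild-type cells and at 5.55, 5.43 and 7.10 in tumors. Its groups did not overlap, tumor 25 was the highest, and the difference of 1.19 ± 0.45 did not pass (adjusted p of 0.16). It was 0.65 without tumor 25 and 0.57 after housekeeping centring.

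Genes known as targets of these systems were mostly under the background mark. Of 18 measured polycomb targets, 8 lay under it on every array and 1 rose, Tbx15, a T-box developmental factor. Tbx15 measured 3.57, 3.03 and 3.35 in wild-type cells, all under the mark, and 7.20, 5.59 and 7.36 in tumors, with an adjusted p of 0.024. The cell cycle inhibitor gene Cdkn2a, a classical polycomb target named after its values were seen, was at 4.88, 5.52 and 5.98 in wild-type cells and at 6.10, 7.86 and 7.70 in tumors. Its groups did not overlap and the difference of 1.76 ± 0.52 did not pass (adjusted p of 0.11; 1.14 after housekeeping centring). Of 17 measured germline genes that DNA methylation is known to silence, 14 lay under the mark on all 6 arrays. On the deposited scale Zcwpw1, a meiotic reader of histone marks, rose and none fell. The difference of Zcwpw1 was 1.47 ± 0.28 with an adjusted p of 0.044 (0.85 and 0.070 after housekeeping centring), from values under the mark on all 3 wild-type arrays. The list medians were -0.23 for the polycomb targets and -0.28 for the germline genes, beside -0.12 over all genes. After repeated quantile normalization both were -0.08, beside -0.03 over all genes. After cyclic loess they were -0.01 and -0.07, beside 0.004. With most of these genes under a mark that was itself lower on the tumor arrays, the medians do not show lower expression. After housekeeping centring 1 polycomb target was called higher and 7 lower, and 0 germline genes higher and 10 lower. Of all 22180 genes, 548 were then called higher and 6975 lower. The medians were -0.85 for the polycomb targets and -0.90 for the germline genes, beside -0.74 over all genes.

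**Figure D4:**
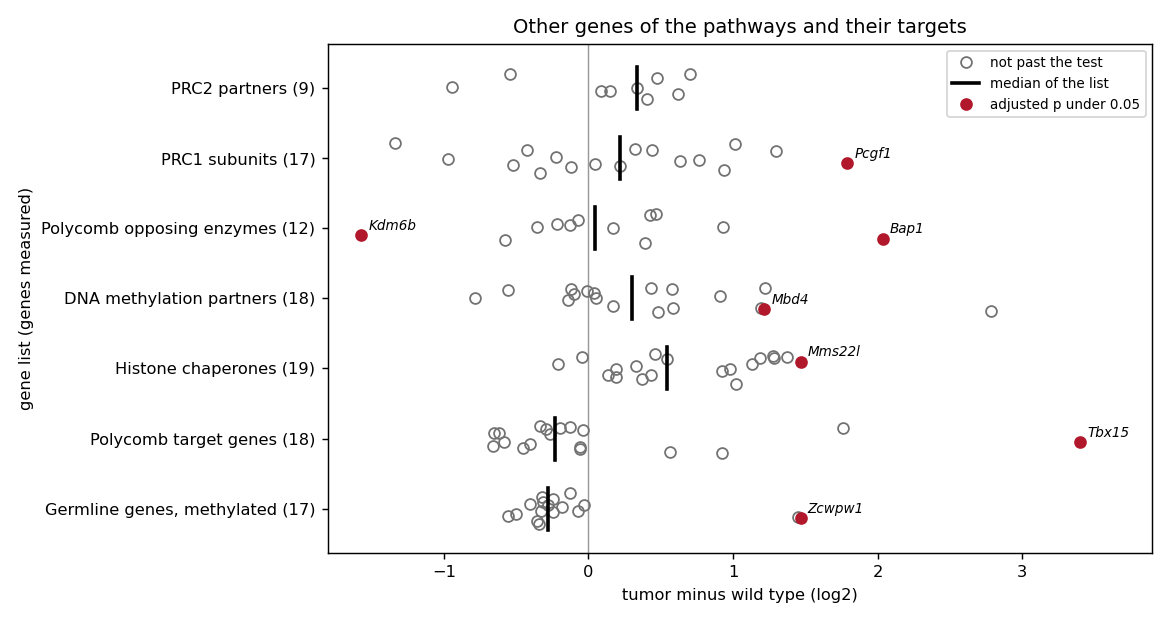
Difference between tumors and wild-type cells (x axis, log2) of the genes of 7 lists (y axis, with the number measured), filled where the adjusted p was under 0.05, with a bar at the list median. Past the threshold are Pcgf1, Bap1, Mbd4, Mms22l, Tbx15 and Zcwpw1 on the higher side and Kdm6b on the lower side.

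Leaving out single arrays ended most of these calls. Mms22l passed in 3 of 6 such sets (without wild-type mouse 2, tumor 24 or tumor 25) and Pcgf1 in 2 (without tumor 24 or 25). Bap1, Kdm6b, Mbd4 and Tbx15 passed in the set without tumor 24 only, and Zcwpw1 in none.

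The genes nearest in pattern to a member were sought among the 7726 genes with a mean of at least 5, by the root mean square difference of values centred on each gene's own mean over the 6 arrays. Nearest to Ezh2 were Jpt1 (0.07 log2 units), Polrmt (0.08) and Mbtps1 (0.10). Nearest to Chaf1a were Pdhb (0.06), Acad8 (0.12) and Nde1 (0.12), and nearest to Dnmt1 were Zdhhc20 (0.04), Atp5b (0.05) and Hmgn1 (0.08). Zdhhc20 remained the nearest to Dnmt1 under quantile normalization and cyclic loess, whereas Atp5b took place 292 and 152 and Hmgn1 place 13 and 7. Of the neighbours of Ezh2, Jpt1 took place 2 and 1, Polrmt 6 and 4, and Mbtps1 7 and 7. Of those of Chaf1a, Nde1 took place 1 under both, Pdhb 2 and 4, and Acad8 25 and 9.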

How the data were processed

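The deposited table holds log2 expression values per probe set of 6 arrays, made by the authors with RMA and oligo, per the submitters' processing notes, which list no versions. RMA brings arrays towards a common distribution and compresses differences near background. Per the labels, a NuGEN system amplified and biotin-labelled total RNA. Of 41345 probe sets, 23521 named 1 gene, 1814 several and 16010 none, and 23328 were matched by Entrez identifier to RefSeq symbols (GRCm38.p6). The brightest probe set stood for each of 22180 genes. Scan batches and detection calls could not be used without scanner files, and precision is limited by the 6 arrays.

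Tumors and wild-type cells were compared with limma 3.58.1 (R 4.3.3, lmFit and eBayes, two-sided, no covariate, no filter), adjusted over all genes by Benjamini-Hochberg. The fit was tested on simulated data, in which 50 genes each were changed by 1, 2, 3 or 4 log2 units. It recovered 6%, 62%, 86% and 84% of them, and 0.83% of its 120 calls were false. A difference near 1 log2 unit that did not pass is therefore not shown to be absent. Probe sets tested singly also gave 2 member calls. Members, gene lists and the background mark were chosen with earlier results of these data known. Named were all members, the 4 largest called changes of each pathway list or its 2 largest differences where none was called, the 3 genes nearest in pattern to Ezh2, Dnmt1 and Chaf1a, and genes marked as chosen later. Alternatives were other probe set summaries, dim-gene filters, scalings, priors, array weights and leaving out arrays. Some genes of the lists were not analysed here, as no probe set named them alone.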

Additional observations from a re-analysis of the deposited data

How the results depend on the processing

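Of 426 recomputed values for single genes and pairs of genes, 329 kept their direction and, for single genes, their side of the threshold. Among the 329 were all values of the pairs, which had no threshold and were judged by direction alone. They include 6 ratios that centring cannot move. Of the other values, 11 passed only in the alternative, 74 lost a call and 12 changed sign. The sign changes were of differences that had not passed: Dnmt1 (-0.28 after quantile normalization again, -0.25 after cyclic loess, -0.60 after housekeeping centring, -0.17 without wild-type mouse 1, -0.12 without tumor 25, -0.14 in tumor 24 alone; -0.17 to 0.13 without single arrays), Suz12 (-0.29) and Ezh1 (-0.28) after housekeeping centring, Dnmt3a (0.0346 without wild-type mouse 4, 0.0465 in tumor 24 alone; -0.33 to 0.0346 without single arrays) and Tet2 (0.20 without tumor 25, 0.79 in tumor 24 alone; -0.71 to 0.20 without single arrays). With a mean of at least 5, 8 members were measured and 1 passed, Hells, since Dnmt3b and Chaf1a were left out by the filter. Of all 7726 genes in that setting 915 passed, 649 of them higher. The 867 genes called in all became 7523 after housekeeping centring, which moved the median difference from -0.12 to -0.74, and 1324 with array weights. The higher share was 559 of 867 on the deposited scale, 391 of 883 after quantile normalization again, 442 of 845 after cyclic loess and 548 of 7523 after centring. In tumor 24 alone 0 members and 0 genes passed. Probe sets tested singly gave 2 member calls, or 1 after housekeeping centring. Without single arrays the members called ranged from 0 to 4, with probe sets singly also from 0 to 4, and all genes called from 72 (without wild-type mouse 4) to 1200 (without tumor 24). Fewer arrays leave fewer degrees of freedom; otherwise the cause was not tested. No paired analysis was possible because the wild-type cells and the tumors came from mice of different genotypes.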
